A study of Mus musculus with 6 samples.

Results

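The 9 genes Kit, Cd34, Myb, Gfi1, Runx1, Meis1, Hoxa9, Sox4 and Gata1 were followed in bulk RNA-seq of mouse T cells taken from coculture. They are regulators and surface markers of blood stem and progenitor cells, and are 9 of the 54532 genes in the deposited count table. The genes were chosen by name, with earlier results of these data known. All 9 passed the filter on low counts, which 14883 genes of the table passed in all. The control group held 3 samples of primary T cells that had been incubated with untreated partner cells (CONT1 to CONT3). The DB2313 group held 3 samples of primary T cells whose partner cells had been treated with DB2313 (DB2313T1 to DB2313T3), a small molecule that inhibits Spi1 (also called PU.1), the transcription factor of myeloid cells. GEO's labels call the partner cells dendritic cells (DC), whereas the study's methods describe macrophages activated with interferon-γ and spleen CD8T cells activated with anti-CD3/CD28 beads, and neither source gives strain, age or genotype for these samples. Both sources give the same split by DB2313, although a protocol field that is the same for all 6 samples mentions the inhibitor for the controls too; groups follow the treatment given per sample. The comparison asks how the transcripts of T cells differ when the partner cells have met the inhibitor. Nothing in the labels says whether the 3 samples of a group came from separate cultures, so the p-values measure the spread between these samples, which may be technical.

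Blood cells arise from stem cells through progenitors that commit step by step to the lymphoid, erythroid, megakaryocytic, granulocytic or mast cell lineages. Kit, the receptor for stem cell factor, and Cd34, a sialomucin, are surface proteins by which such cells are recognised. Myb, Runx1, Gfi1, Gata1, Sox4, Meis1 and Hoxa9 are transcription factors that maintain progenitors or direct their choice of lineage. Several of them also act in mature cells: Kit and Gata1 in mast cells, Runx1, Myb, Gfi1 and Sox4 in T cells, and Cd34 on endothelium, fibroblasts and mast cells.

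The libraries held between 16611975 and 18596217 counts. T cell transcripts were present in every library: the 20 T cell markers took 0.335% to 0.337% of all counts with control partner cells and 0.541% to 0.543% with DB2313. Transcripts of other cells were counted as well. The 18 macrophage markers took 1.29% to 1.32% of the counts with control partner cells and 0.508% to 0.519% with DB2313. Of 10 dendritic cell markers, 9 were tested, 7 fell, 1 rose and 1 did not pass, at a median of -0.44 on the log2 scale, with Siglech at 0, and the list took 0.164% to 0.167% and 0.148% to 0.153% of the counts. The 5 genes of granulocyte progenitors (the granule genes Mpo, Elane, Prtn3 and Ctsg, and the progenitor marker Ms4a3) took 0.0479% to 0.04999% and 0.0997% to 0.101%. In bulk RNA of mixed cells, fewer cells of a type and less RNA per cell cannot be told apart. The part of these markers in the results below was not tested, except where a value is given.

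The promoters of Cd34, Gata1 and Sox4 are shown because Cd34 changed most among the 9 genes, Gata1 rose most, and Sox4 and Gata1 hold a core of the Spi1 recognition site. Each is the 250 bases before the RefSeq start on GRCm38.p6, written 5′ to 3′ on the gene's strand, with matches to the motifs searched in capitals.
Cd34, chr1:194938571-194938820, plus strand: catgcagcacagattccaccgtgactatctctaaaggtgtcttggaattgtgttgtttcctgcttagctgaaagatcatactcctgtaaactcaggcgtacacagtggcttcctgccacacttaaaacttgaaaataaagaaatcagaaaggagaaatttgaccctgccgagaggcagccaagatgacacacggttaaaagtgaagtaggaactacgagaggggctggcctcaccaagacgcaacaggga
Gata1, chrX:7967911-7968160, minus strand: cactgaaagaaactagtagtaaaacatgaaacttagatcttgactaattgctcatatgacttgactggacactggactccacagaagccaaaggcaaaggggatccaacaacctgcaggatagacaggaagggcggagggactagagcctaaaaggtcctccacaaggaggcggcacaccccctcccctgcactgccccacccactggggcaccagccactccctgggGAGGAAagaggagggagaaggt
Sox4, chr13:28953700-28953949, minus strand: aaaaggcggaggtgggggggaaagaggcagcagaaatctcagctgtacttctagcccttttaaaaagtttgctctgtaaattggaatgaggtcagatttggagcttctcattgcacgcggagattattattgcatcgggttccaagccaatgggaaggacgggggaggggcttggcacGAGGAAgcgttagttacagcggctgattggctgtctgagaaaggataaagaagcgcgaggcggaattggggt
On both strands, 3 motifs were searched. GAGGAA is the core of the site that Spi1 recognises. AGATAA is that of the family of Gata1. TGTGGT is that of the Runx family. RefSeq listed 12 such windows for the 9 genes. GAGGAA was found in 6 of these 12 windows and in 23.3% of all 32851 windows. The 6 belong to 5 genes (Kit, Runx1, Hoxa9, Sox4 and Gata1), since both windows of Kit, which overlap, hold it. It starts 22 bases before the start of Gata1 and 72 bases before that of Sox4. TGTGGT was found in 1 of the 12 windows, that of Meis1, and in 14.05% of all windows. AGATAA was found in none of the 12 windows and in 9.99% of all. The Cd34 window holds none of the 3. The Gata1 window lies 10161 bases inside the gene as the count table draws it, outside the exons of GENCODE, while the Cd34 and Sox4 windows end 2 and 14 bases inside their genes. A match describes letters and not binding.

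Cd34 was 8.13-fold lower in the DB2313 group, Runx1 was slightly lower, and Gata1, Gfi1, Sox4, Myb and Kit were modestly higher, while Meis1 and Hoxa9 did not pass the test. Of the 9 genes, 5 were called higher at an adjusted p below 0.05, against a background of 20.8% of all tested genes, and 2 were called lower, against 24.6%. In either direction 7 of 9 were called, against 45.4%. Since the genes were chosen with earlier results of these data known, these shares are a description and not a test. The groups did not overlap in these 7 genes, against 53.1% of all tested genes; 5 of the 9 were separate with DB2313 higher (25.6% of all) and 2 with DB2313 lower (27.5%). With an absolute log2 fold change above 1 as a second condition, Cd34 alone was called lower (5.3% of all tested genes) and none was called higher (1.37%). The median log2 fold change was 0.42 over the 9 genes and 0.019 over all tested genes. As a sum, the 9 genes took 0.0322% ± 0.000266 of the counts with control partner cells and 0.0326% ± 0.000949 with DB2313 (SD, n = 3), a difference within the spread between replicates (two-sided exact permutation test, p = 0.6). These shares are of library totals, without the TMM scaling described below. That scaling lowers DB2313 values against control (factors of 0.965 to 0.972 in control libraries and 1.03 to 1.04 with DB2313). The TMM-scaled sum was not tested, and in any sum the fall of Cd34 offsets the rises.

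The rises rest on how the libraries are scaled. Values were scaled by TMM, which takes most genes as unchanged. When libraries were scaled to their T cell marker counts instead, the log2 fold change of each of the 9 genes moved by -0.59, so that Kit, Myb, Sox4 and Hoxa9 changed sign, Gfi1 and Gata1 stayed above 0 without passing the test, and 0 of the 9 were called higher and 5 lower (Cd34, Runx1, Meis1, Kit and Myb). Library size and upper quartile scaling moved the values by 0.094 and 0.064 and kept each of the 7 calls. Among all calls, the share of higher genes was 45.8% with TMM, 63.4% with library size, 58.2% with upper quartile and 1.38% with T cell marker scaling, and the median log2 fold change of all tested genes was 0.019, 0.11, 0.083 and -0.57. A rise below therefore means a rise relative to the bulk of the transcripts.

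**Figure D1:**
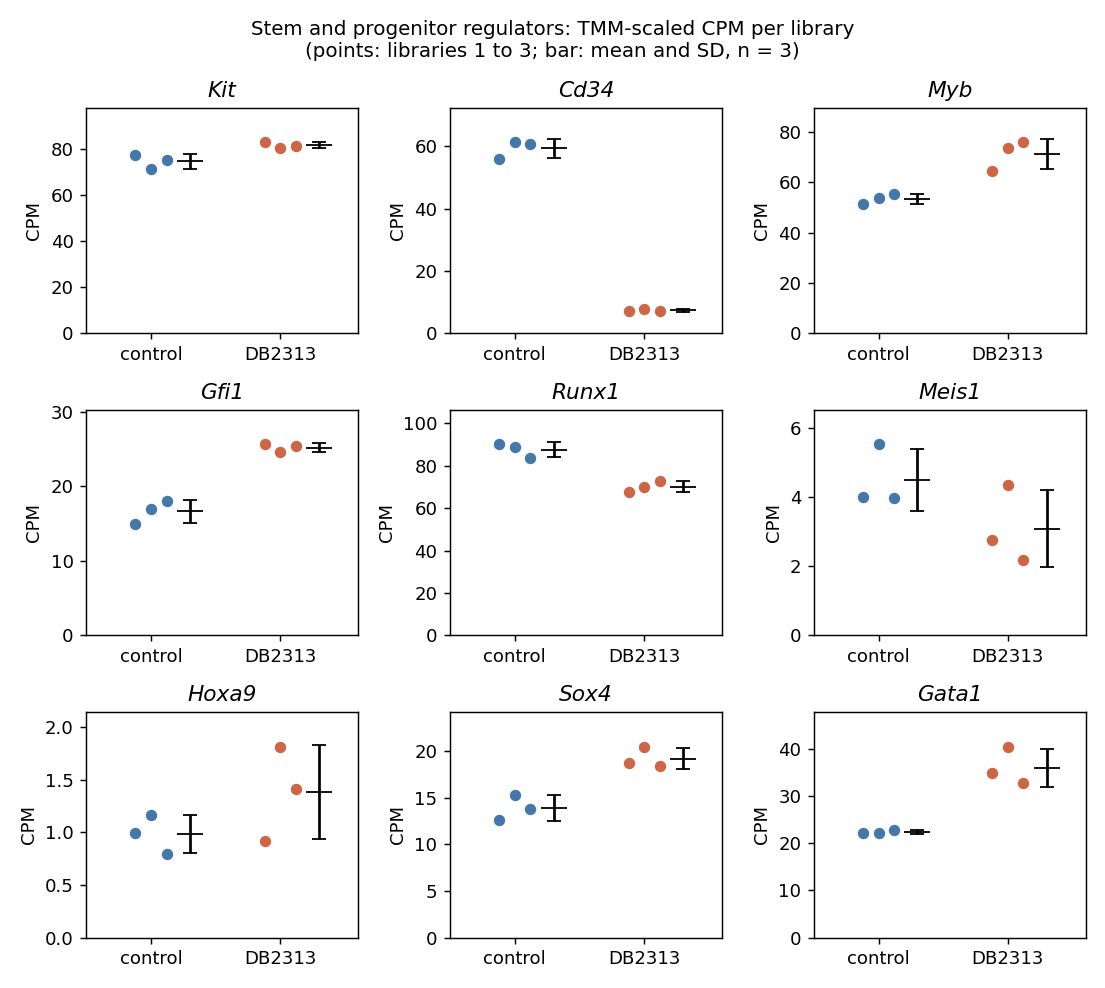
CPM (TMM-scaled counts relative to library size) of each of the 9 genes in the 3 control and 3 DB2313 libraries, with points for libraries and a bar for the mean and SD on axes that start at 0. Cd34 dropped from 55.8 or more to 7.74 or less, Gata1 and Gfi1 stood higher in every DB2313 library (with T cell marker scaling these rises no longer passed the test), and the groups overlapped for Meis1 and Hoxa9.

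Cd34 (ENSMUSG00000016494, chromosome 1 of GRCm38 from 194938819 to 194961279, plus strand, protein-coding) had the largest change of the 9 genes. Control libraries held 1007, 1056 and 995 counts, and DB2313 libraries 130, 132 and 131. Libraries of a group lay close together and far from the other group. Its level went from 59.3 ± 3.08 to 7.30 ± 0.382 CPM (SD, n = 3 each). This is a log2 fold change of -3.02 (SE 0.0822, edgeR adjusted p = 5.60e-19), which ran from -3.07 to -2.997 over the fits that each left out 1 library. Scaled to the T cell markers it was -3.62. An antisense gene, Gm16897, overlaps its 3′ part but held at most 8 counts in a library.

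Other transcripts carried by cells that bear Cd34 did not share one direction. Of the 7 endothelial markers 5 were tested, of which 3 rose, 1 fell and 1 did not pass (1 higher and 2 lower with T cell marker scaling), with a summed share of 0.0157% to 0.0161% of the counts in the control group and 0.0167% to 0.0173% with DB2313. The best counted were Pecam1, at a log2 fold change of 0.15 (SE 0.0380), and Vwf, the 1 that fell, at -0.69 (SE 0.0702). Vwf went from 44.2 ± 0.668 to 27.4 ± 2.20 CPM (SD, n = 3), and Kdr was at 0.58 (SE 0.165). Cldn5 was at 0. Cdh5, the cadherin of endothelial junctions, was scarcely counted, with 3, 3 and 4 counts in the control libraries and 25, 15 and 18 with DB2313. The 7 stromal markers took at most 0.000806% of the counts of any library, and none of the 3 tested passed the test. Of the 13 mast cell and basophil markers, 9 were tested, of which 5 fell and 3 rose (7 lower and 0 higher with T cell marker scaling), and the list took 0.114% to 0.116% of the counts in the control group and 0.0961% to 0.0975% with DB2313. Their 4 untested genes (Tpsab1, Mcpt4, Mrgprb1 and Mrgprb2) were near 0. Among the tested ones, the mast cell proteases Tpsb2, Cma1 and Cpa3 had log2 fold changes of -5.40, -1.59 and -1.31, and the basophil proteases Mcpt8 and Prss34 of 0.52 and 0.39. The last 2 values are below the shift given by T cell marker scaling. The part of these cells in the Cd34 result was not tested.

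Kit (ENSMUSG00000005672, chromosome 5 from 75574916 to 75656722, plus strand) carried the smallest change that passed the test. Control libraries held 1399, 1225 and 1235 counts and DB2313 libraries 1538, 1378 and 1502. In CPM the groups did not overlap, at 71.3 to 77.5 against 80.8 to 83.3, but the gap between them was narrower than the range of the controls. Kit rose with a log2 fold change of 0.13 (SE 0.0478, edgeR adjusted p = 0.0282). The call was lost with DESeq2 (adjusted p = 0.0807) and in edgeR fits without control replicate 2, DB2313 replicate 1 or DB2313 replicate 3 (adjusted p = 0.158, 0.0885 and 0.0504), and the value turned to -0.46 with T cell marker scaling. Kitl, the ligand of Kit, was too low to test, at 0.269 ± 0.143 and 0.372 ± 0.140 CPM (SD, n = 3). A ratio of counts within a library needs no scaling. Cd34 per count of Kit was 0.7198, 0.862 and 0.806 in the control libraries against 0.0845, 0.0958 and 0.0872 with DB2313 (two-sided exact permutation test, p = 0.1, which is as low as 3 samples against 3 can go). This ratio and those that follow were chosen after the values were seen.

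Other receptors and surface proteins of progenitors moved in both directions: 13 of 15 genes were tested, 4 rose, 6 fell and 3 did not pass, with a median log2 fold change of 0.10 (0 higher and 10 lower with T cell marker scaling). The largest fall was in Procr, the endothelial protein C receptor found on stem cells, at -1.64 (SE 0.0966, edgeR adjusted p = 1.10e-12). Csf3r, the receptor for granulocyte colony-stimulating factor, was at -1.43 (SE 0.0788) and Prom1 at -0.71 (SE 0.155). Cd93, a surface protein of early progenitors and myeloid cells, fell from 144.6 ± 3.65 to 91.2 ± 1.25 CPM (SD, n = 3). The adaptor Sh2b3, which restrains signals of Kit, fell from 114.4 ± 4.35 to 80.9 ± 2.68 CPM, and Ly6a (Sca-1), a surface protein of stem cells and lymphocytes, from 1143 ± 42.9 to 990.0 ± 37.6 CPM. Among the genes that rose, Epor is the erythropoietin receptor and had a log2 fold change of 1.04 (SE 0.264). Flt3, a receptor of lymphoid and dendritic cell progenitors, was at 0.36 (SE 0.0741). Cd27, a costimulatory receptor that T cells carry too, was at 0.67 (SE 0.0393). With T cell marker scaling, 0 of these genes were higher.

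Gata1 (ENSMUSG00000031162, chromosome X from 7959260 to 7978071, minus strand), the factor of erythroid, megakaryocytic, eosinophil and mast cells, had the largest rise of the 9 genes. Control libraries held 401, 381 and 374 counts and DB2313 libraries 643, 691 and 602. Every DB2313 library stood above every control library, and DB2313 replicate 2 was the highest. Its level went from 22.4 ± 0.377 to 36.0 ± 4.02 CPM (SD, n = 3), a log2 fold change of 0.68 (SE 0.0816, edgeR adjusted p = 2.43e-07). With T cell marker scaling it was 0.089 and did not pass (adjusted p = 0.320). Gata2, the paralog that precedes Gata1 in progenitors, was at 68.0 ± 0.867 and 67.1 ± 2.79 CPM and did not pass with a log2 fold change of -0.019 (SE 0.0511). Within a library, Gata1 per count of Gata2 was 0.322, 0.328 and 0.339 in the control libraries against 0.522, 0.578 and 0.507 with DB2313 (exact permutation p = 0.1), without overlap. Gata1 and Spi1 are known to oppose each other in the choice between erythroid and myeloid fates. Control libraries held 5026, 4983 and 4756 counts of Spi1 and DB2313 libraries 2941, 2715 and 2731, a log2 fold change of -0.88 (SE 0.0374, edgeR adjusted p = 2.58e-15). Gata1 per count of Spi1 was 0.0798, 0.0765 and 0.0786 in the control libraries against 0.219, 0.255 and 0.220 with DB2313 (exact permutation p = 0.1), without overlap. This ratio joins the rise and the fall already given. Whether Gata1 and Spi1 oppose each other in these cells was not tested. The macrophage markers moved with Spi1: 18 of 18 fell, with a median of -1.22, and their part in the Spi1 value was not tested.

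Of the partners and targets of Gata1, 12 of 14 genes were tested, 4 rose, 2 fell and 6 did not pass, with a median log2 fold change of 0.15 (1 higher and 9 lower with T cell marker scaling). Zfpm1 (Fog1), the cofactor that binds Gata1, was at 0.30 (SE 0.0613), and Ldb1, the adaptor of the Gata1 complex, at 0.51 (SE 0.0329). Lmo2, the bridging subunit of that complex, fell from 90.7 ± 6.53 to 64.7 ± 1.43 CPM (SD, n = 3). Tal1, its helix-loop-helix subunit, at 0.10 (SE 0.0821), and Gfi1b, the paralog of Gfi1 in erythroid cells, at 0.40 (SE 0.185), did not pass. The largest change was in Pf4 (platelet factor 4), which went from 102.8 ± 6.06 to 209.0 ± 13.1 CPM, and Itga2b, the platelet integrin, was at 0.16 (SE 0.0531). Alas2 was too low to test and Ahsp was not analysed here. Markers of the lineages that use Gata1 moved unevenly. Of 7 platelet and megakaryocyte markers, 5 rose and 1 did not pass, with Gp1bb at 0 (2 higher and 2 lower with T cell marker scaling), and together they took 0.0253% to 0.0259% of the counts of a control library and 0.0428% to 0.0459% of a DB2313 library. Of 8 erythroid markers, 3 were tested and 1 rose (0 higher with T cell marker scaling); the list took 0.000253% to 0.000326% of the counts of a control library and 0.000488% to 0.000614% of a DB2313 library, with Hba-a2 and Slc4a1 at 0. Of 5 eosinophil markers, 2 fell and 3 did not pass (0 higher and 4 lower with T cell marker scaling). Of the 9 tested mast cell and basophil markers, 5 fell and 3 rose (0 higher and 7 lower with T cell marker scaling). The part of these cells in the Gata1 result was not tested.

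Gfi1 (ENSMUSG00000029275, chromosome 5 from 107716657 to 107726036, minus strand) is a zinc finger repressor of granulocyte and lymphoid progenitors. Control libraries held 271, 292 and 295 counts and DB2313 libraries 474, 419 and 468. In CPM the groups stood apart, at 15.02 to 18.0 against 24.6 to 25.7. Gfi1 rose with a log2 fold change of 0.60 (SE 0.0876, edgeR adjusted p = 4.81e-06), close to the median of the T cell markers (0.61), and with T cell marker scaling it was 0.00581 (adjusted p = 0.955). A noncoding gene on the opposite strand, A430072P03Rik, overlaps Gfi1 by 880 bases and held 6 to 29 counts in a library; whether counting used the strand is not given, so reads of overlapping genes cannot be told apart.

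Sox4 (ENSMUSG00000076431, chromosome 13 from 28948919 to 28953713, minus strand), an HMG-box factor of progenitors and of early B and T cells, had 227, 264 and 226 counts in control libraries and 346, 350 and 338 in DB2313 libraries. In CPM the ranges were 12.6 to 15.4 and 18.4 to 20.5, without overlap. Sox4 rose with a log2 fold change of 0.46 (SE 0.0992, edgeR adjusted p = 0.000477) and was at -0.13 with T cell marker scaling (adjusted p = 0.239). Its paralog Sox12 did not pass, at 2.94 ± 0.427 and 3.13 ± 0.278 CPM, and Sox11 had 0 counts, which allows up to 0.181 CPM in the smallest library.

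Myb (ENSMUSG00000019982, chromosome 10 from 21124935 to 21160984, minus strand), which keeps progenitors and thymocytes dividing, had 923, 922 and 903 counts in control libraries and 1192, 1254 and 1399 in DB2313 libraries. The DB2313 libraries were higher and more spread, at 64.5, 73.5 and 76.0 CPM against 51.2, 53.6 and 55.2. Myb rose with a log2 fold change of 0.42 (SE 0.0612, edgeR adjusted p = 4.45e-06), and with T cell marker scaling it was at -0.17 and called lower (adjusted p = 0.0140). Its paralogs Mybl1, at 0.079 (SE 0.234), and Mybl2, at 0.16 (SE 0.0738), did not pass. Of 12 cell cycle genes, 5 rose and 7 did not pass, with a median of 0.11 (12 lower with T cell marker scaling).

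Of the relatives and cofactors of Myb, Gfi1 and Sox4, 9 of 10 genes were tested, 3 rose, 2 fell and 4 did not pass, with a median log2 fold change of 0.095 (0 higher and 8 lower with T cell marker scaling). Ep300 and Crebbp, the acetyltransferases that Myb recruits, fell, with log2 fold changes of -0.20 (SE 0.0452) and -0.17 (SE 0.0550), but with library size scaling 0 genes of the list were called lower. Hdac1 and Kdm1a, of the repressor complex of Gfi1, rose, with 0.14 (SE 0.0378) and 0.12 (SE 0.0481, edgeR adjusted p = 0.0449). Rcor1, another cofactor of the list, did not pass, at -0.070 (SE 0.0520). With DESeq2, 2 genes of the list were called higher. Tcf3, a helix-loop-helix factor of lymphoid progenitors, was at 0.26 (SE 0.0438). Transcripts of T cells and of granulocytes were followed beside Gfi1, Sox4 and Myb. Each of the 20 T cell markers was called higher, with log2 fold changes between 0.32 and 0.74. The 5 genes of granulocyte progenitors rose, with a median of 0.94, and 4 of them were still called higher with T cell marker scaling (median 0.35). Elane (neutrophil elastase) went from 99.0 ± 3.92 to 216.5 ± 4.95 CPM (SD, n = 3). The 9 neutrophil markers went the other way: 9 of 9 fell, with a median of -1.72, from 0.191% to 0.192% of the counts of a control library to 0.0710% to 0.0727% of a DB2313 library. Of 7 B cell markers, 5 rose (1 higher and 2 lower with T cell marker scaling), and the list took 0.00471% to 0.00512% of the counts of a control library and 0.00746% to 0.00764% of a DB2313 library. The part of these cells in the results for Gfi1, Sox4 and Myb was not tested.

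Runx1 (ENSMUSG00000022952, chromosome 16 from 92601466 to 92826149, minus strand), the DNA-binding subunit of core binding factor, fell under each of the 4 scalings. Control libraries held 1627, 1528 and 1371 counts and DB2313 libraries 1250, 1192 and 1344. In CPM the groups were separate, at 83.8 to 90.2 against 67.7 to 73.0. The log2 fold change was -0.32 (SE 0.0489, edgeR adjusted p = 8.76e-06), -0.23 with library size and -0.91 with T cell marker scaling. An antisense gene inside Runx1, Gm26626, held at most 10 counts in a library. Of its family and partners, 5 of 6 genes were tested, 0 rose, 2 fell and 3 did not pass, with a median log2 fold change of -0.093. The count of genes lower was 1 with library size scaling (where 1 was higher), with upper quartile scaling and with DESeq2, and 5 with T cell marker scaling. Runx3, which CD8T cells use, was at -0.093 (SE 0.0442) and Cbfb, the shared partner subunit, at -0.066 (SE 0.0379), and neither passed. Runx1 per count of Cbfb was 0.608, 0.593 and 0.585 in the control libraries against 0.469, 0.506 and 0.526 with DB2313 (exact permutation p = 0.1), without overlap. Per count of Runx3 it was 0.885, 0.891 and 0.810 against 0.709, 0.699 and 0.805, where the groups nearly touched. Runx2 was at -0.21 (SE 0.0855, edgeR adjusted p = 0.0459), with overlapping groups. Cbfa2t3 (Eto2), a corepressor of the Gata1 and Tal1 complex, fell from 71.6 ± 3.57 to 38.3 ± 1.76 CPM (SD, n = 3), at -0.90 (SE 0.0598). Cbfa2t2, its paralog, did not pass, and Runx1t1 had 0 counts.

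The homeobox genes were the least counted of the 9. Meis1 (ENSMUSG00000020160, chromosome 11 from 18879817 to 19018985, minus strand), a cofactor of Hox proteins, had 72, 95 and 65 counts in control libraries and 51, 74 and 40 in DB2313 libraries. The groups overlapped, since DB2313 replicate 2 stood above control replicates 1 and 3 in CPM. The log2 fold change was -0.55 (SE 0.234, edgeR adjusted p = 0.0610), which did not pass. It passed without a filter (adjusted p = 0.0328), with the replicate block (adjusted p = 0.0357) and without DB2313 replicate 2, at -0.86 (edgeR adjusted p = 0.00606). Hoxa9 (ENSMUSG00000038227, chromosome 6 from 52223100 to 52231089, minus strand), which drives the expansion of myeloid progenitors, had 18, 20 and 13 counts in control libraries and 17, 31 and 26 in DB2313 libraries. The groups overlapped. The log2 fold change was 0.48 (SE 0.361, edgeR adjusted p = 0.300), which did not pass. Of the homeobox genes and cofactors related to them, 11 of 17 genes were tested, 4 rose, 2 fell and 5 did not pass, with a median log2 fold change of 0.34 (0 higher and 7 lower with T cell marker scaling). Hoxa7, the neighbour of Hoxa9, rose from 1.01 ± 0.348 to 1.96 ± 0.0761 CPM (SD, n = 3, edgeR adjusted p = 0.0211). Hoxa10 had 0 counts in each control library and 5, 1 and 2 with DB2313, and was too low to test. Pbx3, which binds DNA together with Hox and Meis proteins, fell, with a log2 fold change of -0.90 (SE 0.192), whereas Pbx2, at 81.4 ± 1.32 and 80.1 ± 4.07 CPM, did not pass. Mllt3 and Pknox1, a relative of Meis1, rose, at 0.48 (SE 0.0519) and 0.34 (SE 0.0602), as did Meis3 at 0.68 (SE 0.102). Meis2 was too low to test. Kmt2a, the histone methyltransferase upstream of Hox genes, was at 0.099 (SE 0.0438) and did not pass.

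**Figure D2:**
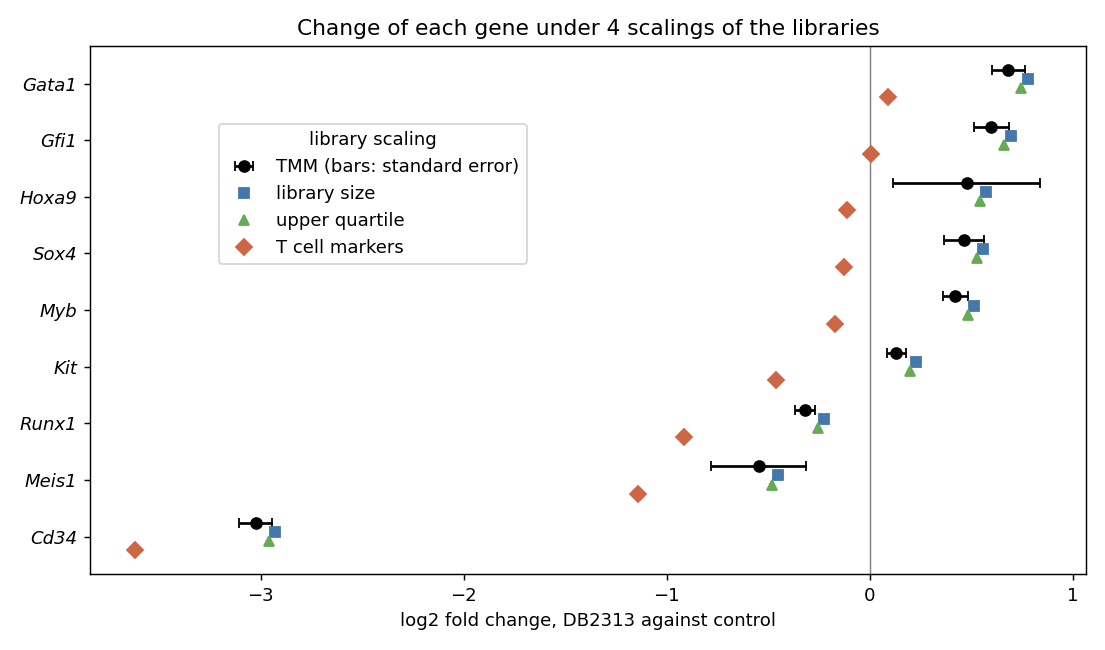
Log2 fold change (DB2313 against control, x axis) of each of the 9 genes under TMM, library size, upper quartile and T cell marker scaling, with bars of 1 standard error for TMM. Cd34, Runx1 and Meis1 lie below 0 under each of the 4, Gfi1 and Gata1 come close to 0 with T cell marker scaling (0.00581 and 0.089), and Kit, Myb, Sox4 and Hoxa9 lie below 0 with it.

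Of other regulators of stem and progenitor cells, 16 of 19 genes were tested, 6 rose, 1 fell and 9 did not pass, with a median log2 fold change of 0.15 (0 higher and 13 lower with T cell marker scaling). Ikzf1 (Ikaros) was at 0.27 (SE 0.0318) and Satb1, a chromatin organiser of T cells, at 0.50 (SE 0.0343). Etv6, a repressor that stem cells need, fell from 140.0 ± 2.34 to 108.6 ± 0.743 CPM (SD, n = 3). Ikzf2 (Helios) was at 0.11 (SE 0.0454) and did not pass.

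**Figure D3:**
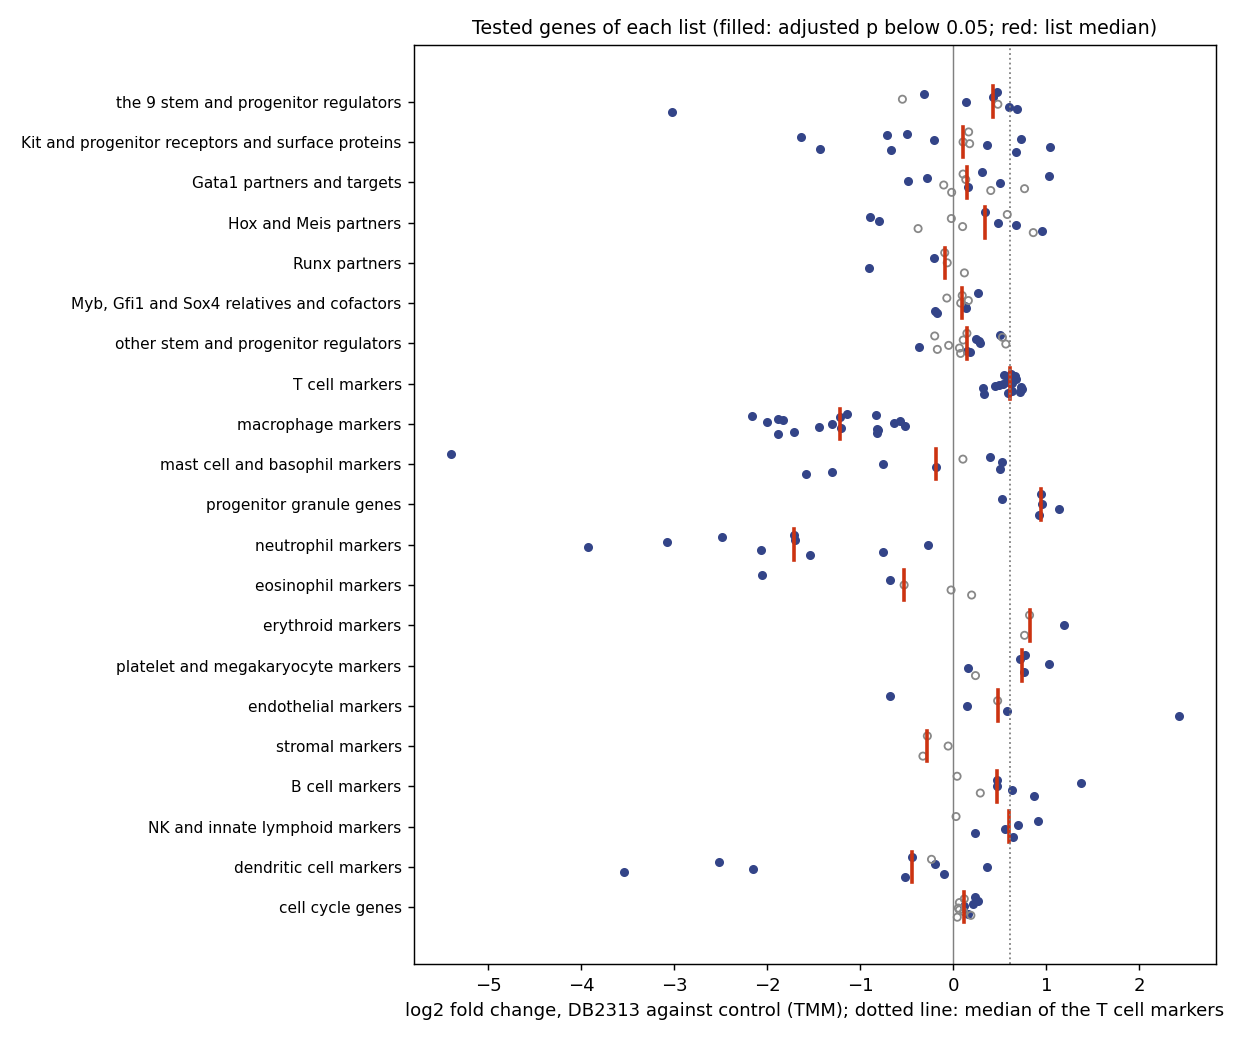
Log2 fold change (TMM, x axis) of the tested genes of each list, with 1 point a gene, filled where the adjusted p was below 0.05, a red mark at the list's median and a dotted line at the median of the T cell markers. The 9 genes have a median of 0.42 with Cd34 far to the left at -3.02, and the macrophage markers lie below 0; T cell marker scaling would move the points by -0.59.

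Levels of different genes were compared only per length, as CPM per kilobase of merged exons (mean ± SD, n = 3). In the control group Gata1 stood first at 9.19 ± 0.154, followed by Kit at 8.39 ± 0.358 and Cd34 at 8.14 ± 0.422, whose ranges overlapped. Runx1 was at 7.29 ± 0.283, Myb at 5.97 ± 0.227, Gfi1 at 5.23 ± 0.479 and Sox4 at 2.90 ± 0.291, and Meis1 and Hoxa9 were last at 0.427 ± 0.0848 and 0.177 ± 0.0332. With DB2313, Gata1 (14.8 ± 1.65) and Kit (9.19 ± 0.143) were again first, and Cd34 was seventh at 1.001 ± 0.0523. Between them were Myb (7.99 ± 0.676) and Gfi1 (7.91 ± 0.183), whose ranges overlapped, then Runx1 (5.84 ± 0.225) and Sox4 (4.01 ± 0.239). Meis1 (0.293 ± 0.106) and Hoxa9 (0.248 ± 0.0805) overlapped at the end.

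**Figure D4:**
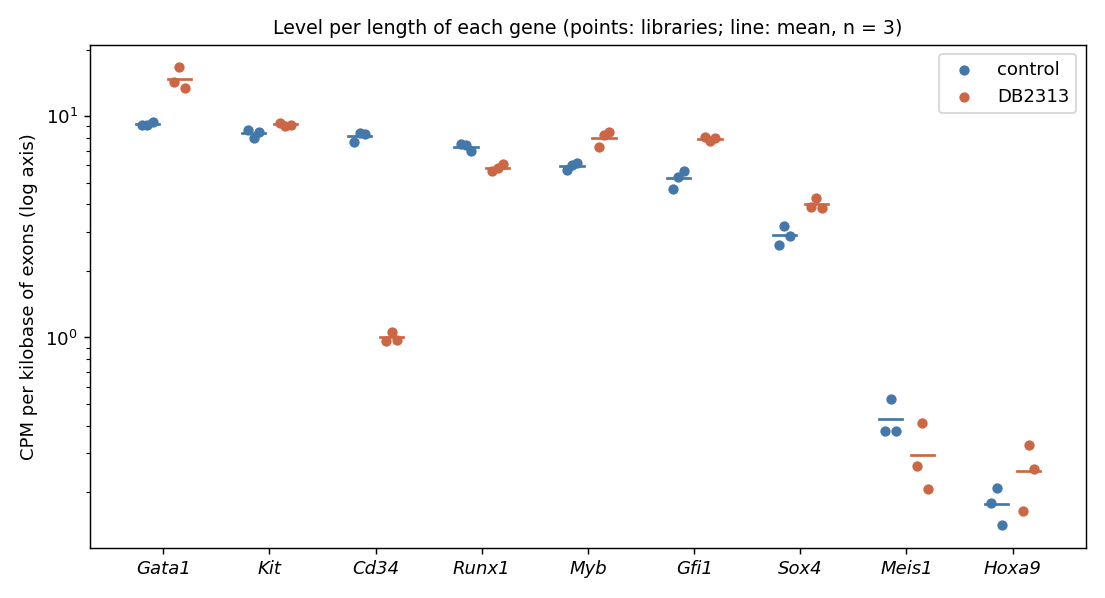
Level of each of the 9 genes as CPM per kilobase of exons (log axis), with points for the 3 libraries of a group and a line at their mean. Gata1 is highest in both groups, Cd34 goes from 8.14 to 1.001, and Meis1 and Hoxa9 are lowest.

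For each of the 9 genes, other protein-coding genes averaging 10 CPM or more were ranked by the Pearson correlation of log2 CPM over the 6 libraries. The libraries share the split into groups, so a high r largely repeats the group difference, and r is given as a description. Cd34 was most like Bst1 (r = 0.9999) and Asb2 (r = 0.9999), and 1660 of 9333 genes had an r above 0.95 with it. Runx1 was most like Capn2 (r = 0.9992) and Adcy6 (r = 0.9984), Gata1 like Nup107 (r = 0.9991) and Arid5a (r = 0.9986), and Gfi1 like Lmbr1l (r = 0.9994) and Mak16 (r = 0.9959). Sox4 was most like Cd79a (r = 0.9980) and Adsl (r = 0.9955), of which Cd79a encodes a B cell receptor chain, and Myb like Desi1 (r = 0.9982) and Eef2 (r = 0.9978). Fewer genes resembled the rest: 61 for Kit, led by Ormdl1 (r = 0.9876) and Cct3 (r = 0.9861), 12 for Hoxa9, led by Polr3f (r = 0.9813) and Ebag9 (r = 0.9808), and 6 for Meis1, led by Cct4 (r = 0.9879) and Cycs (r = 0.9675).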

How the data were processed

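The authors deposited raw counts per gene for 6 libraries, without normalization, beside a gene length. The submitters' processing notes list CASAVA 1.8, HISAT2 2.0.5 and featureCounts 1.5.0-p3, whereas the paper names LifeScope; build and strandedness are not given in the sources used here. Coordinates in the table equalled those of GRCm38 (GENCODE mouse release 21) for 98.3% of shared genes and for 9 of the 9 genes described.

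Library totals were 16611975 to 18596217 counts. For a gene at 0, a limit of 3 counts is given, which covers counting error only. Counts of all genes were tested with edgeR 4.0.16 in R 4.3.3 (filterByExpr, TMM, quasi-likelihood, Benjamini-Hochberg adjustment over 14883 genes, threshold 0.05). Standard errors came from the fitted change and its test. On simulated counts, 185 of 200 changed genes and 12 unchanged ones were called among 14875. The simulated folds were larger than the changes of Kit, Runx1, Myb and Sox4. Far fewer genes were changed than were called in the data (45.4%). The simulation therefore cannot vouch for calls of small changes or for the scaling of these libraries. Alternatives were DESeq2 1.42.0, library size, upper quartile and T cell marker scaling, a replicate block, a fold threshold, omission of each library in turn, no filter, and a minimum of 10 counts in all samples. Libraries of a group differed by more than counting noise (chi-square per gene 2.48 to 3.81).

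The 9 genes and the lists were chosen with earlier results of these data known. Named were the 9 genes, their direct partners and paralogs, Spi1, genes overlapping them, the 2 genes most alike to each, and up to 4 tested genes of highest CPM in a list. Outside this rule, Procr, Csf3r, Prom1, Epor, Meis3, Kdm1a, Rcor1, Cma1, Cdh5, Ms4a3 and the genes given as untested or at 0 were named after their values were seen. Some genes that the rule or the lists hold are not reported here. Promoter sequences are from RefSeq on GRCm38.p6.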

Additional observations from a re-analysis of the deposited data

How the results depend on the processing

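The log2 fold changes of the 9 genes gave 117 comparisons with an alternative, of which 103 left the call as it was, 6 lost it, 4 gained it and 4 changed sign. With T cell marker scaling, Kit was at -0.46, Myb at -0.17, Hoxa9 at -0.11 and Sox4 at -0.13, all of opposite sign, Gfi1 at 0.0058 and Gata1 at 0.089 no longer passed, and Meis1 at -1.14 passed. Under it 0 of the 9 genes were higher and 5 lower, and 162 of all tested genes were higher and 11551 lower; by construction it moves each of the 9 values by about -0.59. Library size scaling called 4931 genes higher. With a fold threshold, 204 genes were higher and 789 lower, and 0 and 1 of the 9. Kit lost its call with DESeq2 (0.13) and ran from 0.098 to 0.16 when single libraries were left out. Meis1 gained one with no filter (-0.55) and ran from -0.86 to -0.35. Medians changed sign with T cell marker scaling for the receptors and surface proteins (-0.49), Gata1 partners (-0.45), Hox and Meis partners (-0.25), Myb, Gfi1 and Sox4 relatives (-0.50), other regulators (-0.45), endothelial (-0.12), B cell (-0.12) and cell cycle genes (-0.48), and with library size scaling for the Runx partners (0.0011). The replicate block gave 2912 higher and 3525 lower genes and Meis1 at -0.56 (edgeR adjusted p = 0.0357). Deviations of same-numbered samples had correlations of -0.0147, -0.0165 and -0.0452, which gave no sign of pairing by number. With so few libraries in a group, these values cannot exclude it. Hoxa9 and Meis1, the least counted of the 9 genes, had the widest standard errors (0.361 and 0.234).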
